A study of Homo sapiens with 22 samples.

Results

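The ribosomal protein genes encode the protein components of the cytoplasmic ribosome. Members were the RefSeq protein-coding genes with an RPL or RPS symbol followed by digits, together with RPLP0, RPLP1, RPLP2 and RPSA, leaving out pseudogenes and the RPS6K kinases, and 82 of 20052 protein-coding genes met this. There were 31 small subunit genes, 43 large subunit genes, 3 stalk genes and 5 genes for paralogs of a core protein (RPL3L, RPL10L, RPL39L, RPS27L and RPL36AL). A gene was represented, for each antibody, by the region with the highest mean level within 1 kb of its start. For 17 genes without a listed strand, either end of the gene was allowed as the start. RPL10L had no such region for any antibody.

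The cells were K562, a single human leukemia line of erythroid and megakaryocytic potential, labelled as wild type, and all groups came from it. Cells received 25 nM PMA, a phorbol ester that activates protein kinase C, for 0, 6 or 72 h, and the 0 h cells serve as the untreated state. The assay, abbreviated CNR in the sample titles, was taken as CUT&RUN, in which an antibody-directed nuclease releases the DNA beside its target. Antibodies were against acetylated lysine 27 of histone H3 (H3K27ac, a mark of active promoters and enhancers), Jun (which forms AP-1 dimers on DNA) and CTCF (an insulator protein) at 0, 6 and 72 h, and Rad21 (a subunit of cohesin) at 0 and 72 h, giving 22 libraries in 11 groups of 2.

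Ribosomal protein genes are among the most strongly transcribed genes of growing cells, and their products are made in matched amounts because each ribosome takes 1 copy of most of them. Their messenger RNAs usually begin with a C followed by a run of pyrimidines, the 5′ terminal oligopyrimidine motif, through which the mTOR pathway adjusts their translation. Loss of 1 copy of several of them causes Diamond-Blackfan anemia, a failure of red cell production, which makes them of interest in a line of erythroid origin.

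The gene starts shared sequence features that the choice of members did not use. Of 80 promoter entries of members in RefSeq (GRCh38.p14; 65 of the 82 genes have one), 57.5% had C and then 4 pyrimidines at the start, against 4.07% of all 35116 entries. A run of 8 or more pyrimidines touching the 10 bases around the start was present in 68.8% of member entries and 11.5% of all entries. Across the 300 bases from 250 before to 50 after the start, searched on both strands, the ETS letters CCGGAAG were found in 33.8% of member entries against 10.3% of all. The YY1 letters AAGATGGC were found in 7.5% against 2.89%, and the SP letters GGGCGG in 56.2% against 45.0%. The AP-1 letters TGANTCA were in 2.5% of member entries, those of RPL6 and RPL24, against 7.71% of all. The TATA letters TATAAA were in 7.5% against 11.5%. Median GC content was 59.3% in members and 58.7% in all entries.

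The promoters of 6 genes that mark the range of behaviour in these data are shown from 130 bases before to 20 bases after the start, 5′ to 3′ on the gene's strand, with coordinates on GRCh38.p14. RPS7 had the greatest H3K27ac loss at 72 h, RPS12 the greatest at 6 h, and RPS18 was among the genes with the greatest Jun loss. RPLP0 is the stalk base gene, RPL35A gained Jun upstream of its start, and RPS27L kept its H3K27ac. Capitals mark runs of 5 or more pyrimidines that touch the 10 bases around the start, together with matches to the ETS, YY1, TATA or AP-1 letters.
RPS7 (chr2:3575130-3575279, plus strand): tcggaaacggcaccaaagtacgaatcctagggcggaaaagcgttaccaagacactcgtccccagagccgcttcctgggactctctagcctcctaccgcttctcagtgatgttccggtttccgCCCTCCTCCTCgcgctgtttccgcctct
RPS12 (chr6:132814439-132814588, plus strand): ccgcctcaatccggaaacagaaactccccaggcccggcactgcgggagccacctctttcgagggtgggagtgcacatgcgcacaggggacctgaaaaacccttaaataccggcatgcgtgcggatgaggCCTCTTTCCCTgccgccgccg
RPS18 (chr6:33271945-33272094, plus strand): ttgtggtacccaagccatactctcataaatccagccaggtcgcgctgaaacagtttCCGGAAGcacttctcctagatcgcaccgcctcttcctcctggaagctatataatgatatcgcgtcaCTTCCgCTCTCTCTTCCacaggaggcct
RPLP0 (chr12:120201092-120201241, minus strand): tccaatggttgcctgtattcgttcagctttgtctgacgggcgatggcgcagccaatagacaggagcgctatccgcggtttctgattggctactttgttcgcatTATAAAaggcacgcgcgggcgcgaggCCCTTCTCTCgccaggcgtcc
RPL35A (chr3:197950060-197950209, plus strand): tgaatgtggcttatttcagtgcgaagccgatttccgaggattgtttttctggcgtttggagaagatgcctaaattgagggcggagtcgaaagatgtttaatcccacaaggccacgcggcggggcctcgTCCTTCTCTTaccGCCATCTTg
RPS27L (chr15:63157458-63157607, minus strand): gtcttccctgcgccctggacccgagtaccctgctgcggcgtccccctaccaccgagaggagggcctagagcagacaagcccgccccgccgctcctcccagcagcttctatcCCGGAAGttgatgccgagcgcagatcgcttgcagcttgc
RPS7, RPS12, RPS18, RPLP0 and RPL35A carry a pyrimidine run at the start, and the RPS27L sequence has none of that length there. RPL35A carries the YY1 letters, read on the other strand, just past its start, and RPS18 and RPS27L carry the ETS letters.

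The genes were short, with a median span of 5013 bp against 24097.5 bp for all protein-coding genes. They lay on 21 chromosomes, with 12 on chromosome 19. A small nucleolar RNA gene lay inside the span of 29 members (35.4%), against 2.62% of all protein-coding genes. Such RNAs guide the modification of ribosomal RNA and are processed from introns of their host.

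Counts within the deposited regions summed to between 12634261 and 27266241 per H3K27ac library, 4766421 and 18883962 per Jun library, 2553677 and 6068421 per CTCF library, and 4398797 and 7285286 per Rad21 library. Of 8 K562 marker genes, 5 had an H3K27ac peak in both libraries at 0 h, 1 at 6 h and 3 at 72 h. Megakaryocyte markers had one at 2 of 5 genes at 0 h (GP9 and ITGA2B), at none at 6 h and at 4 at 72 h (GP9, THBS1, GP1BA and ITGA2B). Of 5 markers of other cells, only CD3E had one, at 72 h. The part of this shift in markers in the results below was not tested. Levels below are CPM, counts scaled to library size with TMM factors, which assume that most regions do not change. Another set of TMM factors, called shared-peak scaling below, used only regions that overlap a peak of all libraries of the antibody. The labels do not say whether replicates came from separate cultures, so p-values measure only the spread between these libraries.

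Levels per kb of region describe the member starts for each antibody. Per kb of region, the 81 members with an H3K27ac region ran from 10.3 to 39.1 CPM with a median of 20.2, against a median of 5.36 over all regions, and the median member stood at the 89.7th percentile. Their regions were 1129 to 3646 bp wide and 76 of 81 covered the start. For Jun, 76 members had a region, with a median of 12.5 CPM per kb against 6.8 over all regions. RPS7, RPL29, RPS29, RPL26 and RPS4X had none for Jun, besides RPL10L. For Rad21, 78 members had a region, with a median of 15.2 against 10.2 CPM per kb. For CTCF, only 64 had one and 63 could be tested, with a median of 12.9 against 15.4 CPM per kb. The member values are those of the highest region of each gene, a choice that raises them, and were not compared with the highest regions of other genes.

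Peaks called by the authors were counted in each library. H3K27ac peaks were present in both libraries within 1 kb of the start of 81 members at 0 h, 79 at 6 h and 80 at 72 h, while 48.3%, 45.2% and 49.8% of all protein-coding genes had them. For Jun this held for 55, 26 and 64 members (27.6%, 14.8% and 36.9% of all genes). With only peaks at a −log10 q of at least 10 the Jun numbers were 36, 7 and 31, so that the order of 0 and 72 h turned. Over all genes the shares were then 17.1%, 5.58% and 21.4%, where that order did not turn. For Rad21 it held for 47 members at 0 h and 42 at 72 h (25.0% and 20.7% of all genes), and for CTCF for 21, 14 and 25 members (12.8%, 6.5% and 13.5%). With the stricter peaks the Rad21 numbers were 24 and 16 (11.1% and 6.42% of all genes). Those of CTCF were 14, 7 and 10 (7.72%, 3.28% and 5.96% of all genes). For CTCF the order of 0 and 72 h thus turned both for members and for all genes. Jun peak summits lay upstream, with library medians from -189.5 to -145.5 bp relative to the start, and Rad21 summits likewise, with medians from -157 to -100 bp. The number of Jun peaks called in the whole genome moved with time, from 31637 and 35072 at 0 h to 23946 and 35376 at 6 h and 92329 and 99102 at 72 h, and its part in the number of member peaks was not tested.

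After 6 h of PMA, H3K27ac was lower at most member starts and higher at none. Lower levels were called, at an adjusted p under 0.05 by edgeR's quasi-likelihood test over all regions, at 69 of 81 genes, with 32.3% of all tested regions called higher and 26.3% called lower. Among all regions within 1 kb of a protein-coding gene start, 60.7% were called, 13.2% higher and 47.5% lower. The median member log2 fold change was -0.52, a level 0.697 times that at 0 h, against -0.31 at all gene start regions and 0.20 over all regions. Both 6 h libraries lay below both 0 h libraries at 77 of 81 members (35.4% of all regions and 60.3% of gene start regions). The number called depended on scaling: shared-peak scaling gave 5 higher and 30 lower with a median of -0.17, total counts gave 3 higher and 32 lower, and loess offsets gave 8 higher and 23 lower with a median of -0.09.

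RPS12, which encodes a small subunit protein near the beak, changed most at 6 h. Its region (chr6:132812490-132814507, ending upstream of the start) had 99.9 and 93.5 CPM before PMA, 43.0 and 48.7 after 6 h, and 41.9 and 49.1 after 72 h. The 0 h libraries stood well above the other 4, which overlapped each other. A further, weaker H3K27ac region just past the start (chr6:132814660-132815726, mean 21.1 CPM) fell in steps instead, with log2 fold changes of -0.51 at 6 h and -0.58 from 6 to 72 h (edgeR adjusted p 0.000257). In the stronger region the log2 fold change was -1.07 (SE 0.11) at 6 h, with an edgeR adjusted p of 7.21e-09, and -0.01 (SE 0.11) from 6 to 72 h, with an adjusted p of 0.926.

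All 3 stalk genes showed the same early course. The stalk is the flexible arm of the large subunit that recruits the translational GTPases. RPLP0, its base, had 95.1 and 98.3 CPM before PMA, 53.2 and 59.8 after 6 h, and 55.9 and 52.4 after 72 h. RPLP1 had 90.1 and 94.1, then 52.4 and 53.8, then 51.4 and 55.1 CPM. RPLP2 had 96.8 and 107 CPM, then 56.6 and 69.9, then 60.9 and 63.4. In each gene the 0 h libraries stood above all others and the 6 and 72 h libraries overlapped. The log2 fold changes at 6 h were -0.77, -0.79 and -0.69, all called, and those from 6 to 72 h were -0.06, 0.00 and -0.03, none called (edgeR adjusted p 0.612, 0.979 and 0.828).

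At 72 h the loss of H3K27ac covered nearly the whole set. Lower levels were called at 76 of 81 members and higher levels at none, with 43.4% of all regions called higher and 38.1% lower, and 13.8% higher and 68.2% lower among all gene start regions. The median log2 fold change was -0.90, a level 0.536 times that at 0 h, against -0.67 at all gene start regions and 0.18 over all regions. Both 72 h libraries lay below both 0 h libraries at 78 members (42.6% of all regions and 74.3% of gene start regions). At 26 members the level fell at least 2-fold. By role, 30 of 31 small subunit genes, 42 of 43 large subunit genes and all 3 stalk genes were lower, but only 1 of 4 paralogs. With shared-peak scaling, 50 were lower and 7 higher with a median of -0.29.

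**Figure D1:**
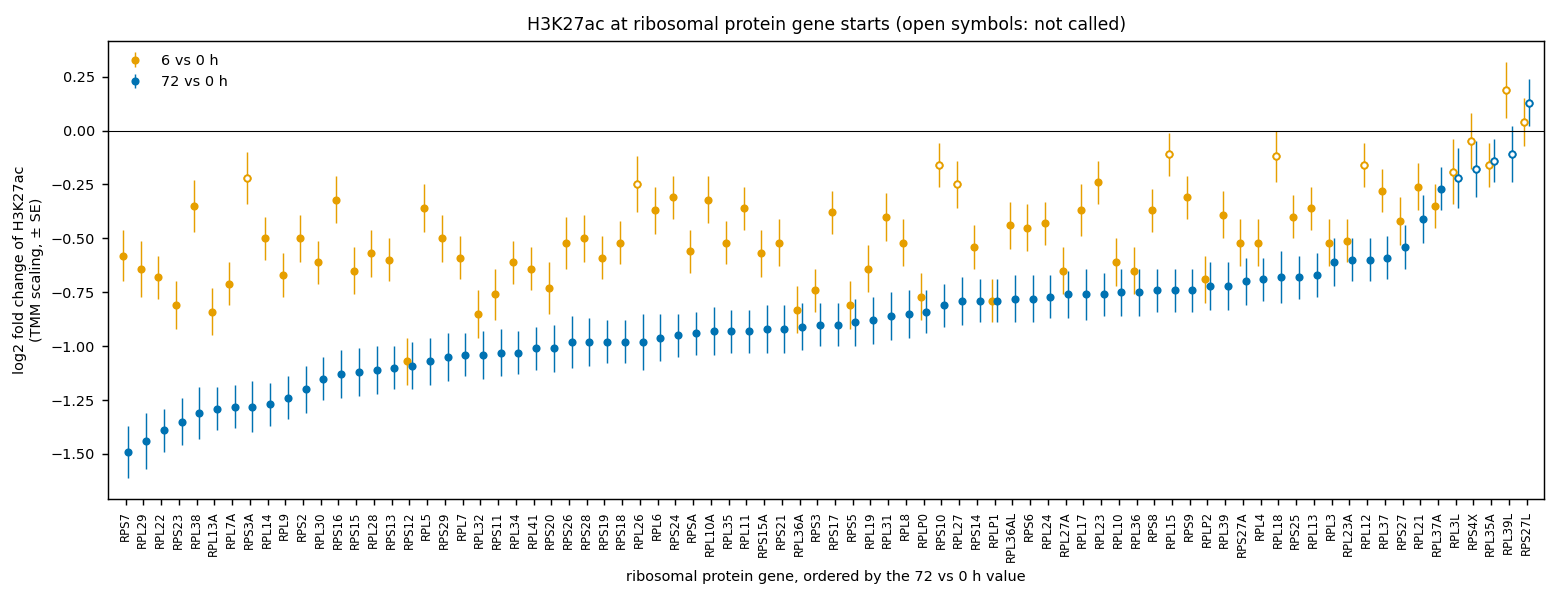
H3K27ac log2 fold change (vertical axis, with SE bars) of the genes tested, with 1 gene not shown, ordered along the horizontal axis by the change from 0 to 72 h; orange, 6 against 0 h; blue, 72 against 0 h; open symbols were not called. Values at 72 h ran from -1.49 at RPS7 to 0.13 at RPS27L, and the orange and blue points coincide at RPS12 and RPLP1 but lie far apart at RPS3A and RPL38.

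RPS7, a small subunit gene mutated in Diamond-Blackfan anemia, fell most at 72 h. Its region (chr2:3575286-3577195, starting just past the gene start) had 35.0 and 36.3 CPM before PMA, 21.9 and 25.6 after 6 h, and 13.1 and 12.3 after 72 h. The 3 time points did not overlap and went down in steps, with a log2 fold change at 72 h of -1.49 (SE 0.12) and an edgeR adjusted p of 1.48e-11. RPL29, a large subunit gene, followed with -1.44 (SE 0.13), from 25.4 and 27.5 CPM to 9.12 and 10.4. RPL22, a large subunit protein dispensable for translation in many cells and mutated in leukemias, went from 106 and 108 CPM to 64.6 and 68.7 and then to 41.9 and 39.7, a change of -1.39 (SE 0.10) at 72 h.

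Small subunit genes of clinical interest followed the same downward course. RPS19, the gene most often mutated in Diamond-Blackfan anemia, had 56.0 and 58.2 CPM before PMA, 37.5 and 38.5 after 6 h, and 28.8 and 29.2 after 72 h, and no 2 time points overlapped. RPS14, whose loss contributes to the anemia of the 5q deletion syndrome, went from 63.7 and 63.4 CPM to 41.3 and 46.1 and then to 36.8 and 36.6. RPS26 went from 66.6 and 61.3 to 41.7 and 47.3 and then to 28.7 and 36.1 CPM. Their log2 fold changes at 72 h were -0.98, -0.79 and -0.98, each with an SE of 0.10 to 0.12 and all called.

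The remaining small subunit genes of a panel picked by role were also lower at 72 h. RPS6, the substrate of S6 kinase, had 42.8 and 36.9 CPM at 0 h and 22.1 and 24.4 at 72 h (log2 fold change -0.78, SE 0.11). RPSA, also described as a laminin receptor, had 96.1 and 104 CPM at 0 h and 53.0 and 50.9 at 72 h (-0.94, SE 0.10). RPS20 had 42.1 and 41.3 CPM, then 19 and 22.4 (-1.01, SE 0.11). RPS27A, which is made as a fusion with ubiquitin, had 80.8 and 80.4 CPM, then 45.8 and 53.5 (-0.70, SE 0.11). RPS27 had the smallest change of these, from 52.5 and 46.2 to 33.6 and 34.3 CPM (-0.54, SE 0.10), and its sign turned with shared-peak scaling (0.07).

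Among large subunit genes, RPL5 and RPL11 encode the partners of 5S ribosomal RNA that bind MDM2 when ribosome assembly fails. RPL11 had 53.0 and 51.0 CPM before PMA, 41.6 and 39.6 after 6 h, and 27.4 and 27.3 after 72 h, which is a log2 fold change of -0.93 (SE 0.10) at 72 h. RPL5 had 43.3 and 36.5, then 31.1 and 31.3, then 19.3 and 18.6 CPM, a change of -1.07 (SE 0.11). The time points did not overlap in either gene. RPL13A, a large subunit protein also released to silence inflammatory transcripts, went from 89.7 and 85.8 to 52.1 and 45.9 and then 37.0 and 34.9 CPM (-1.29, SE 0.10). RPL10, which is placed late in large subunit assembly, went from 70.6 and 67.1 to 38.0 and 43.8 CPM at 72 h (-0.75, SE 0.11).

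**Figure D2:**
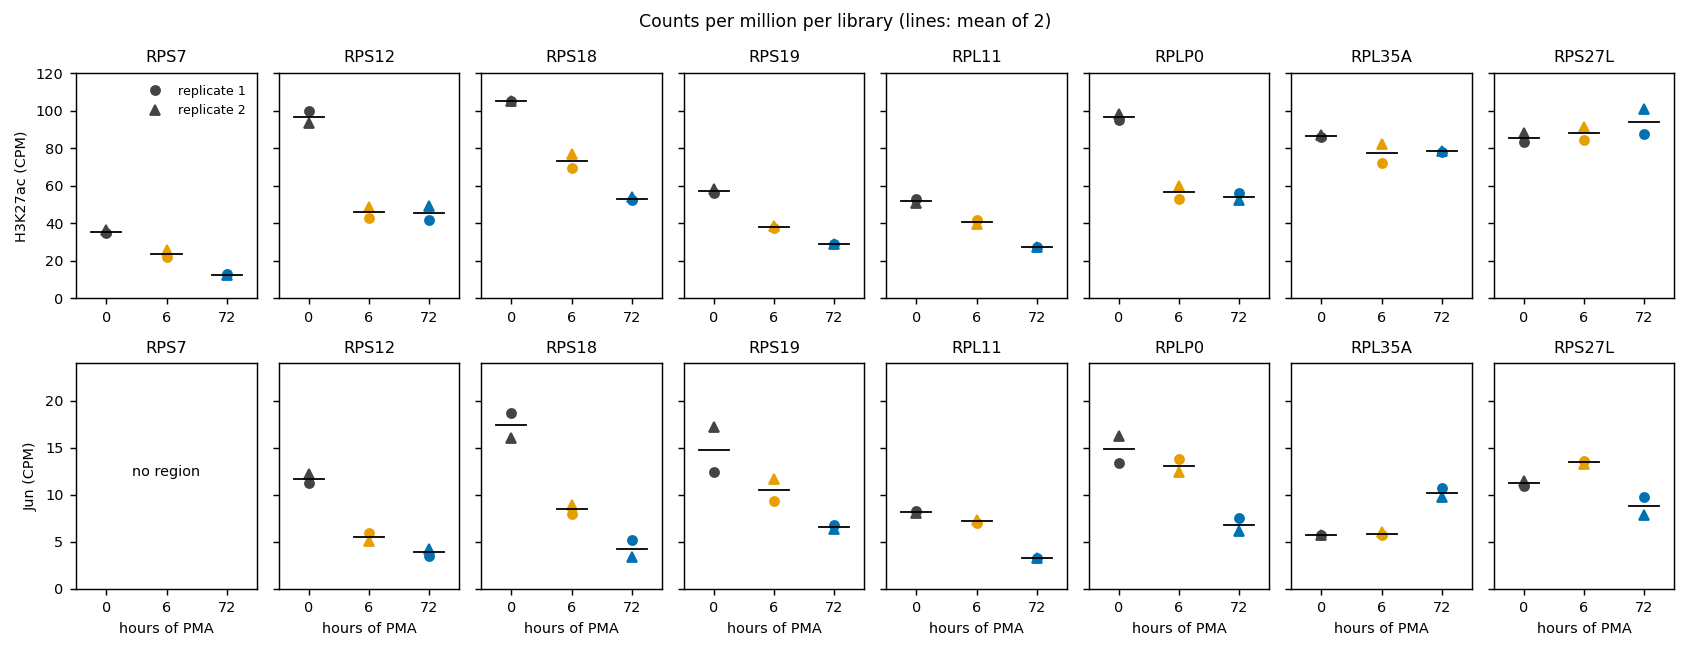
CPM of H3K27ac (upper row) and Jun (lower row) at 8 ribosomal protein genes against hours of PMA; circles and triangles are replicates 1 and 2, and lines are means of 2. H3K27ac at RPS12 and RPLP0 is down by 6 h and level after it, RPS7, RPS19 and RPL11 step down at each time, and RPS27L and RPL35A change little; RPS7 has no Jun region.

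From 6 to 72 h, 57 of 81 members were called lower for H3K27ac and none higher, with 33.1% of all regions called higher and 30.8% lower, and 60.1% called among gene start regions, 10.8% higher and 49.3% lower. The median was -0.39, close to the -0.33 of all gene start regions. RPS3A, a small subunit gene, changed most, with 39.8 and 36.9 CPM before PMA, 35.1 and 31.2 after 6 h, and 17.7 and 13.8 after 72 h. Its log2 fold change was -0.22 (SE 0.12, not called) in the first 6 h and -1.07 (SE 0.12, edgeR adjusted p 5.41e-08) afterwards. RPL38, a large subunit protein known for patterning the vertebrate axis, had 26.8 and 27.1, then 20.2 and 22.1, then 10.4 and 11.4 CPM, a late change of -0.96 (SE 0.12). The 3 contrasts share libraries, so their calls are not independent. With shared-peak scaling, 30 were lower and 7 higher.

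The smallest called losses of H3K27ac were those of the large subunit genes RPL21, RPL23 and RPL37A. RPL21 had 94.6 and 86.3 CPM before PMA and 68.5 and 82.0 after 6 h, groups that did not overlap, for a log2 fold change of -0.26 (SE 0.11) that, among the fits with 1 library left out, was called only without 6 h replicate 2. RPL23 had 53.0 and 50.4 CPM, then 42.6 and 44.7, for a change of -0.24 (SE 0.10) with the same dependence on single libraries. Without 0 h replicate 1, 0 h replicate 2, 6 h replicate 1, 72 h replicate 1 or 72 h replicate 2, the calls of both were lost, at -0.33 to -0.14 for RPL21 and -0.28 to -0.21 for RPL23. RPL37A had 57.8 and 58.5 CPM before PMA and 46.1 and 50.4 after 72 h (-0.27, SE 0.10), and its call was lost without 0 h replicate 1 (-0.28), 0 h replicate 2 (-0.26) or 72 h replicate 1 (-0.21). Under shared-peak scaling and loess offsets the sign of all 3 turned.

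H3K27ac at 5 members was not called lower at 72 h: RPS27L, RPL35A, RPL39L, RPL3L and RPS4X. RPS27L, a paralog of RPS27 known as a p53 target, had 83.5 and 88.0 CPM before PMA, 84.2 and 91.6 after 6 h, and 87.5 and 101 after 72 h. The 3 time points overlapped, and the log2 fold change at 72 h was 0.13 with a 95% interval from -0.08 to 0.34 and an edgeR adjusted p of 0.249. It was called higher under other scalings, with 0.36 for total counts, 0.74 with shared-peak scaling and 0.79 for loess offsets. Its parent gene RPS27 was among the members called lower.

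RPL35A, a large subunit gene also mutated in Diamond-Blackfan anemia, had 85.8 and 87.1 CPM, then 72.4 and 82.3, then 78.1 and 78.4, a change of -0.14 (95% interval -0.35 to 0.06). Its region also overlaps the gene DRC9, so these reads cannot be assigned to RPL35A alone. RPL39L, a paralog best known from the testis, had 16.2 and 13.8, then 17.4 and 16.8, then 14.5 and 13.4 CPM, with overlapping groups at 0 and 72 h and a change of -0.11 (interval -0.36 to 0.15). RPL3L, a paralog of striated muscle, had 20.3 and 22.0, then 21.3 and 16.1, then 15.5 and 20.8 CPM (-0.22, interval -0.50 to 0.06). RPL3L had no listed strand. Its region (chr16:1943050-1944931) lies at the low-coordinate end of the gene and overlaps the gene MSRB1, so it may not be at the RPL3L start. RPS4X, named after its values were seen, had 21.6 and 22.8 CPM at 0 h and 19.8 and 19.5 at 72 h in a region that did not cover its start (-0.18, interval -0.43 to 0.07). An H3K27ac peak within 1 kb of the RPS4X start was called in both libraries at 0 h, but not at 6 or 72 h. In contrast RPL36AL, a broadly expressed paralog of RPL36A, had 36.0 and 33.6, then 25.6 and 25.7, then 19.4 and 21.2 CPM, a called change of -0.78 (SE 0.11).

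Members were also split by sequence features and gene organisation, as a description with no test. For H3K27ac, genes with C and 4 pyrimidines at a listed start (46) and genes with listed starts lacking it (18) both had a median of -0.90 at 72 h. Hosts of small nucleolar RNA genes (29) and members without one (52) both had -0.90. All 29 hosts and 47 of the 52 others were called lower, against 38.1% of all regions and 68.2% of gene start regions. Where the region also overlapped another protein-coding gene, as at 25 members, the median was -0.78, against -0.92 at the other 56. Reads at those 25 starts cannot be assigned to 1 of the genes. For Jun, the 29 hosts of small nucleolar RNA genes had a median of -0.80 at 6 h with 17 called lower. The 47 members without one had -0.46 with 11 called lower (12.2% of all regions and 22.6% of gene start regions). At 72 h the medians of hosts and others were -1.43 and -1.16, with 26 and 41 called lower (25.7% of all regions and 58.6% of gene start regions).

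Jun fell at most member starts by 72 h. Lower levels were called at 67 of 76 members and a higher level at 1, with 53.7% of all tested regions called, 28.0% higher and 25.7% lower, and 6.11% higher and 58.6% lower among gene start regions. The median log2 fold change was -1.27, a level 0.416 times that at 0 h, against -0.92 at all gene start regions and 0.17 over all regions. The 39 further Jun regions within 1 kb of either end of a member gene, which did not represent it, had a median of -0.16, with 10 lower and 2 higher, so that 77 of all 115 member regions were lower. Both 72 h libraries lay below both 0 h libraries at 73 members (35.6% of all regions and 72.0% of gene start regions). The share of counts on the mitochondrial chromosome went from 24.05% and 27.69% at 0 h to 9.069% and 8.583% at 72 h, and without those regions the count was again 67 lower, with a median of -1.26. The median was -0.71 with total counts (48 lower) and -0.48 with shared-peak scaling (30 lower).

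RPS18, which encodes a small subunit head protein, had one of the large Jun losses, with 18.7 and 16.1 CPM before PMA, 7.94 and 8.94 after 6 h, and 5.14 and 3.35 after 72 h. No 2 time points overlapped, and the log2 fold change at 72 h was -2.04 (SE 0.23, edgeR adjusted p 5.06e-07). RPL5 had 11.1 and 9.32, then 5.90 and 5.84, then 2.47 and 2.59 CPM (-2.0, SE 0.26). RPL13A went from 19.4 and 20.4 to 9.53 and 8.21 and then 5.75 and 5.09 CPM (-1.87, SE 0.20). These genes also lost H3K27ac.

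Jun also fell at RPS19, RPS14, RPS26, RPL11 and the stalk genes, with changes of different size. RPS19 had 12.4 and 17.2 CPM at 0 h and 6.80 and 6.32 at 72 h (-1.17, SE 0.22). RPS14 had 15.5 and 19.1, then 7.13 and 5.22 CPM (-1.49, SE 0.22). RPS26 had 13.7 and 15.9, then 5.71 and 3.90 CPM (-1.63, SE 0.24). RPL11 was nearly level at 6 h and lower only at 72 h, with 8.31 and 8.03, then 7.04 and 7.30, then 3.28 and 3.27 CPM (-1.32, SE 0.25). The stalk genes RPLP0, RPLP1 and RPLP2 had log2 fold changes of -1.13, -0.59 and -1.50 at 72 h. The RPLP1 call, from 22.0 and 21.1 to 15.8 and 12.8 CPM, was lost when any of Jun 0 h replicate 1, 0 h replicate 2 or 72 h replicate 2 was left out (-0.56, -0.62 and -0.53), and its sign turned with shared-peak scaling (0.19).

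RPL23A had the greatest Jun level per kb of any member. Its region had 49.7 and 54.8 CPM before PMA, 30.4 and 37.6 after 6 h, and 25.1 and 20.5 after 72 h, with no overlap between time points and a log2 fold change of -1.20 (SE 0.19) at 72 h. The paralogs RPL3L and RPL36AL also lost Jun, with -1.26 (SE 0.19) and -0.86 (SE 0.20). The RPL3L Jun region lies at the same end of the gene as its H3K27ac region, which may not be its start. RPL39L was called lower at -0.77 (SE 0.27), but not without 0 h replicate 2 (-0.46), 72 h replicate 1 (-0.95) or 72 h replicate 2 (-0.69). RPS27L had 10.9 and 11.5 CPM before PMA, 13.6 and 13.3 after 6 h, and 9.80 and 7.81 after 72 h, and its change at 72 h was not called (-0.35, SE 0.21). RPS6 had low Jun levels of 3.5 and 1.43 CPM at 0 h and 2.33 and 2.29 at 72 h, which overlapped (-0.09, SE 0.42).

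RPL35A was the exception with a higher Jun level. Its chosen region (chr3:197948331-197949400) lay upstream of the start, overlapped the gene DRC9, and had 5.69 and 5.73 CPM before PMA, 5.67 and 6.02 after 6 h, and 10.7 and 9.80 after 72 h. The 72 h libraries stood above the other 4, a log2 fold change of 0.84 (SE 0.23, edgeR adjusted p 0.00471), which was no longer called without 72 h replicate 1 (0.78) or 72 h replicate 2 (0.81), or by DESeq2 (0.75). A neighbouring Jun region that reaches into the promoter (chr3:197949638-197950173) changed the other way, by -0.92 (edgeR adjusted p 0.009). The 2 regions were nearly tied in mean level, at 7.26 CPM for the chosen one and 7.18 for its neighbour. The higher call thus rests on which of them represents the gene. The gaining region ends before the promoter sequence printed above begins.

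At 6 h fewer Jun changes were called. Lower levels were called at 28 of 76 members and higher levels at none, with 13.1% of all regions called higher and 12.2% lower, and 5.69% higher and 22.6% lower among gene start regions. The median was -0.55, against -0.37 at gene start regions, and both 6 h libraries lay below both 0 h libraries at 52 members (27.9% of all regions and 48.8% of gene start regions). RPS13, a small subunit gene, fell from 21.7 and 19.8 CPM to 6.58 and 6.39 at 6 h and then had 4.85 and 5.90, a log2 fold change of -1.68 (SE 0.24, edgeR adjusted p 3.21e-05) at 6 h. RPL36 had a fitted -1.74 but rested on levels of 2.63 and 4.16 CPM at 0 h and 0.908 and 1.09 at 6 h, and its call was lost without 0 h replicate 2 (-1.37), 6 h replicate 1 (-1.62), 6 h replicate 2 (-1.98), 72 h replicate 1 (-1.74) or 72 h replicate 2 (-1.82). Without 0 h replicate 2, 17 members were called.

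From 6 to 72 h, 33 of 76 members were called lower for Jun and RPL35A higher (12.7% of all regions higher and 13.5% lower; 2.1% and 29.9% at gene starts), with a median of -0.67. RPS25 had 8.75 and 8.89 CPM before PMA, 9.53 and 10.0 after 6 h, and 3.95 and 3.31 after 72 h, so its whole loss, -1.43 (SE 0.25), came in this interval. RPL13 had 11.1 and 9.89, then 7.04 and 10.4, then 3.8 and 3.52 CPM, a change of -1.27 (SE 0.27) that was not called without 6 h replicate 2 (-0.95). The count of calls fell to 22 without 6 h replicate 2, to 9 without 72 h replicate 1 and to 2 without 72 h replicate 2. With shared-peak scaling, 1 was lower and 2 were higher.

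**Figure D3:**
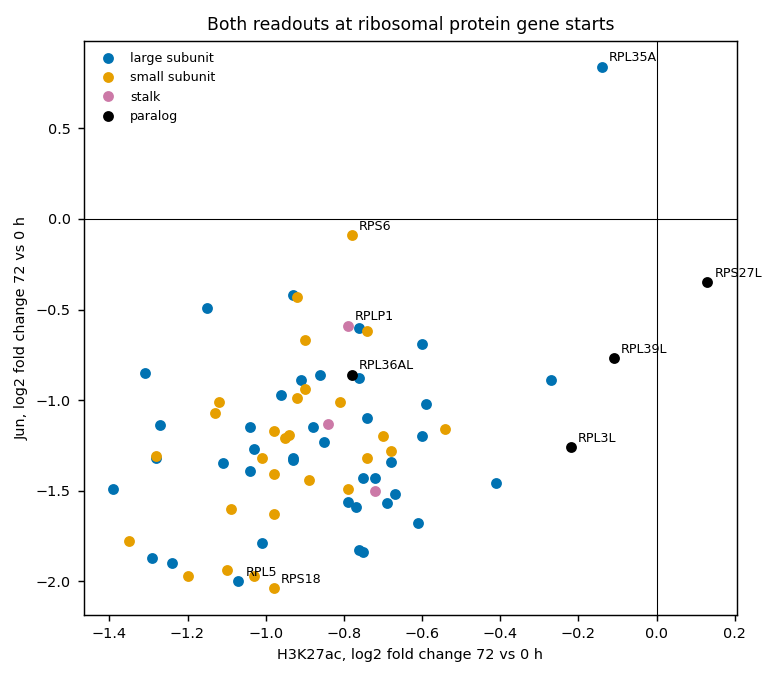
Log2 fold change from 0 to 72 h of H3K27ac (horizontal) against that of Jun (vertical) at the genes with both regions, with 1 gene not shown, coloured by role. Most points lie in the lower left, RPL35A alone lies above 0 for Jun, and RPS27L, RPL39L and RPL3L lie to the right with little H3K27ac change.

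Most starts were called for both antibodies. At 72 h, 65 of the 76 members with both regions were called lower for both, and only RPS27L was called for neither. Among all gene start regions 68.2% were lower for H3K27ac and 58.6% for Jun, and whether the joint count exceeds what these shares give was not tested. The sizes of the changes were loosely related across genes, with Pearson's r = 0.427 and Spearman's rho = 0.289 over 76 genes at 72 h, and r = 0.359 and rho = 0.325 at 6 h. The 2 antibodies were measured in different libraries and the genes are not independent replicates.

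CTCF changes were called at few member starts. At 6 and 72 h against 0 h, 0 and 5 of 63 members were called in either direction. The shares were 2.65% and 6.79% of all tested regions, and 1.75% and 5.39% of gene start regions. At 6 against 0 h, 8 members had an unadjusted edgeR p under 0.05 and DESeq2 also called 0. At 72 h the calls were higher at 3 members (RPS12, RPS28 and RPL18) and lower at 2, RPL26 among them. Of all regions 4.07% were called higher and 2.72% lower, and of gene start regions 2.39% and 3.0%. Both 72 h libraries lay above both 0 h libraries at 38 members (33.2% of all regions and 41.1% of gene start regions). They lay below at 15 (30.4% and 23.9%). In this contrast 20 members had an unadjusted edgeR p under 0.05. The median log2 fold change was 0.61, against 0.23 at gene start regions and 0.03 over all regions. From 6 to 72 h edgeR called 0 (2.18% of regions), with 8 members at an unadjusted p under 0.05, and DESeq2 called 0.

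RPL26, a large subunit gene, had the greatest CTCF level per kb among the members. Its region (chr17:8383128-8383851), which covered the start, had 96.3 and 79.4 CPM before PMA, 44.3 and 70.0 after 6 h, and 35.7 and 35.5 after 72 h. The 0 h libraries lay above all later ones, and the log2 fold change at 72 h was -1.30 (SE 0.28, edgeR adjusted p 0.0166). RPS12 moved the other way, from 2.04 and 1.44 to 7.77 and 4.88 and then 5.53 and 8.01 CPM (1.93, SE 0.54). RPS28, at a region that overlaps the gene NDUFA7 and does not cover the start, rested on 3 and 4 reads at 0 h against 22 and 47 at 72 h (2.44, SE 0.63). RPL18, chosen after its values were seen, had 4.59 and 3.25 CPM at 0 h and 12.7 and 11.8 at 72 h (1.61).

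These CTCF calls were not stable. Leaving out either 0 h library or either 72 h library gave 0 called members, and leaving out CTCF 6 h replicate 1 or 6 h replicate 2, which share only the estimate of spread, gave 9 higher and 5 lower. DESeq2 called 0 higher and 1 lower, total counts 10 higher and 1 lower, shared-peak scaling 6 higher and 1 lower, and loess offsets 1 and 1. In the comparisons where none was called, leaving out CTCF 6 h replicate 2 gave 4 calls at 6 against 0 h, and leaving out 6 h replicate 1 gave 5 from 6 to 72 h.

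Rad21 was nearly level at the member starts. From 0 to 72 h, 3 of 78 members were called higher and none lower, with 15.4% of all regions called higher and 7.91% lower and 4.48% and 3.65% among gene start regions. The median log2 fold change was -0.06, against -0.02 at gene start regions. RPS15, a small subunit gene, had 6.13 and 4.85 CPM at 0 h and 12.1 and 14.3 at 72 h, clearly apart (1.24, SE 0.31, edgeR adjusted p 0.00527). RPL31 had 5.19 and 3.17, then 10.4 and 7.16 CPM (1.05, SE 0.36), and RPLP0 had 9.75 and 11, then 15.8 and 18.7 CPM (0.73, SE 0.27). The call of RPS15 was lost without 72 h replicate 2 (1.19), that of RPL31 without 0 h replicate 2 (0.79) or 72 h replicate 1 (0.80), and that of RPLP0 without 0 h replicate 1 (0.85), 72 h replicate 1 (0.90) or 72 h replicate 2 (0.69). RPS15, RPL31 and RPLP0 were all called lower for H3K27ac over the same interval, as were 76 of 81 members.

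RPS12 had the highest Rad21 level per kb of the members, with 40.4 and 33.1 CPM at 0 h and 24.3 and 24.7 at 72 h. The groups did not overlap, yet the change was not called (-0.59, SE 0.24, edgeR adjusted p 0.0704). RPSA had 27.4 and 29.1 CPM at 0 h and 25.0 and 22.8 at 72 h (-0.24, SE 0.24, not called). RPS19 had 20.4 and 20.1, then 19.5 and 14.7 CPM, also not called (-0.24, SE 0.25). Without Rad21 72 h replicate 1 or 72 h replicate 2 only 1 member was called, DESeq2 called 0 (edgeR had 7 members at an unadjusted p under 0.05), total counts gave 1 higher and 2 lower, and loess offsets gave 3 higher and 1 lower.

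**Figure D4:**
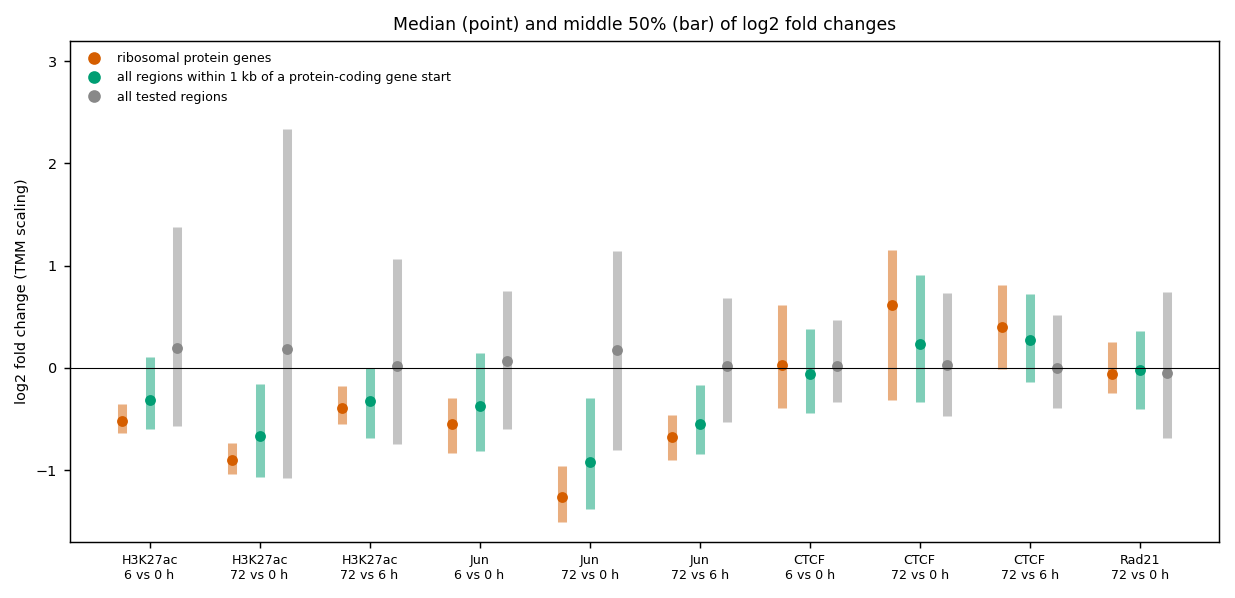
Median (points) and middle 50% (bars) of log2 fold changes for each antibody and contrast: ribosomal protein genes in orange, all regions within 1 kb of a protein-coding gene start in green, all tested regions in grey. For H3K27ac and Jun the orange points lie below the green and grey ones in all 6 contrasts; for Rad21 the 3 lie close together at -0.06, -0.02 and -0.05.

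Other gene sets of the translation apparatus gave the setting for these counts. At 72 h, H3K27ac was lower at 68 and higher at 2 of 76 mitochondrial ribosomal protein genes tested (median -0.94), lower at 34 and higher at 2 of 40 translation factor genes (median -0.67), and lower at 35 and higher at 1 of 39 ribosome assembly genes (median -0.99). FAU and RACK1, which encode ribosomal proteins under other names, were both lower at 72 h, with -0.61 (SE 0.11) and -0.71 (SE 0.10). Of the 19 Diamond-Blackfan anemia genes among the members, 18 were lower (median -0.93). For Jun, 52 of 73 mitochondrial ribosomal protein genes were lower (median -0.98) and 32 of 40 translation factor genes (median -1.16), with 0 and 3 higher, and 29 of 37 ribosome assembly genes were lower and 1 higher (median -1.27). The shares of all gene start regions called lower at 72 h were 68.2% for H3K27ac and 58.6% for Jun. No difference between lists was tested.

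**Figure D5:**
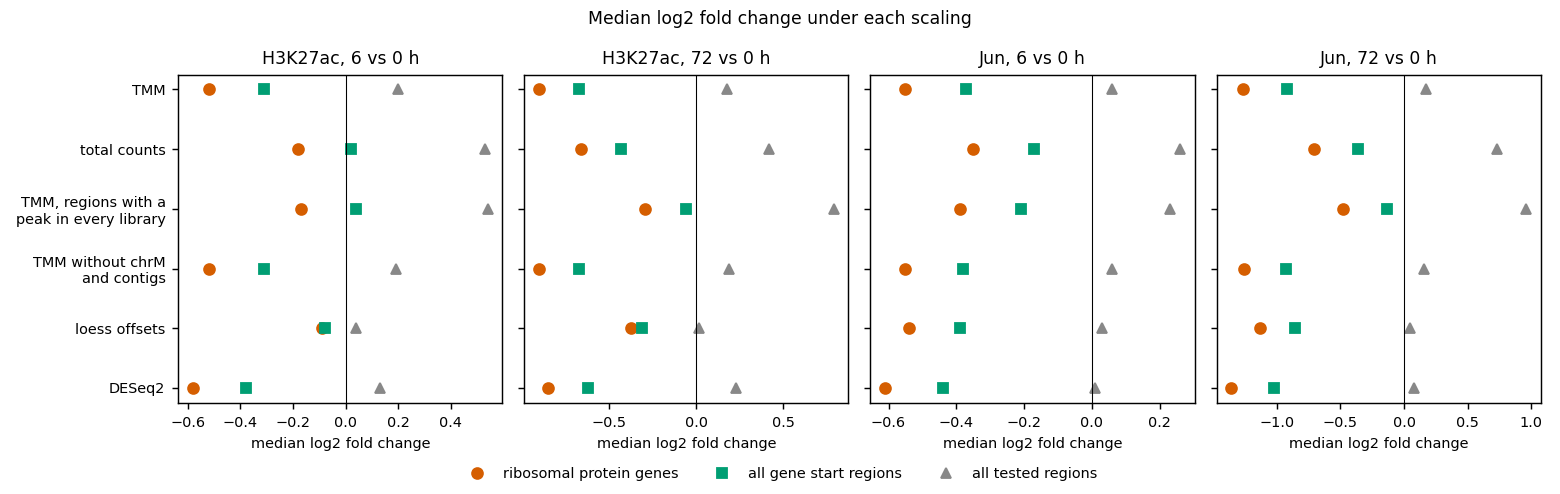
Median log2 fold change (horizontal axis) under 6 scalings (rows) for ribosomal protein genes (circles), all gene start regions (squares) and all tested regions (triangles). The circles lie left of the squares in every row, while the distance of both from 0 depends on the scaling; for H3K27ac at 6 h with loess offsets they nearly coincide at -0.09 and -0.08.

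Across the settings tried, the order between members and other gene starts was steadier than the size of the change. The median over all H3K27ac regions at 6 h came to 0.20 under TMM, against 0.53 under total counts and 0.54 under shared-peak scaling. Relative to all gene start regions, the member median was lower in all 18 settings tried for each of the 3 H3K27ac and the 3 Jun contrasts. Its range over those settings was -0.93 to -0.29 for H3K27ac and -1.36 to -0.48 for Jun at 72 h. Every setting kept only the highest region of each member. The full set of member regions lay within 1 kb of either end of a gene, so it differs from gene start regions in position too. Over all member regions, the Jun median from 6 to 72 h was -0.54, as at gene start regions. At 72 against 0 h it was -1.07 against -0.92 for Jun and -0.88 against -0.67 for H3K27ac. No spike-in counts were used here, so a fall at these starts is a fall relative to the regions that set the scale.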

How the data were processed

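CUT&RUN libraries of K562 cells were analysed from the authors' deposited tables. These hold raw counts per region, deposited 1 table per antibody, and, per library, peaks with a fold enrichment ratio and −log10 p and q values as deposited by the authors. Per the submitters' processing notes, the tools were Trim Galore 0.4.3, BWA 0.7.17, SAMtools 1.9, deepTools 3.0.1, MACS2 and bedtools 2.26, and the builds hg19 and hg38, with roles not given. The regions were matched to RefSeq GRCh38.p14, where 81 of 82 members had an H3K27ac peak at 0 h within 1 kb of the start. Region starts were deposited counting from 0, and 1 was added.

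Members and lists were chosen with earlier results of these data known. Each antibody was fitted over all its regions with edgeR 4.0.16 (R 4.3.3; filterByExpr, TMM, quasi-likelihood test, Benjamini-Hochberg over all tested regions), calling an adjusted p under 0.05. The start was the outer end of the gene span by strand; for 17 members without a promoter entry either end was used. All regions near gene starts include several per gene, whereas a member has 1. Named genes were the 2 with the highest mean CPM per antibody, the 2 largest and 2 smallest called changes per contrast, up to 5 called against the majority, and a panel chosen by role. Tests on simulated counts at 72 against 0 h recovered, of 200 regions changed 2-fold, 106 in the H3K27ac table, 56 with Jun, 24 with CTCF and 22 with Rad21. The changed regions were drawn from all tested regions and most others were left unchanged. In the real data 81.5% of H3K27ac regions were called at 72 h, so these numbers do not give the recovery at members. Counting precision is set by depth; the median member count per library ran from 598 to 1188 with H3K27ac, 33 to 116 with Jun, 10 to 50 with CTCF and 42 to 63 with Rad21. Alternatives were total counts, other TMM sets, loess offsets, DESeq2 1.42.0, filters, 2 time points only, a replicate block, each library left out and other gene windows; loess offsets and the window at any listed start were chosen after seeing the data. The authors' deposited log2 and p-value columns were not used. Values of 1 member and the name of 1 marker gene are not reported here; both are in all counts and medians.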

Additional observations from a re-analysis of the deposited data

How the results depend on the processing

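Counts of called members below are edgeR calls unless named. With H3K27ac at 6 against 0 h, total counts gave 35, shared-peak scaling 35 and loess offsets 31, against 69; from 6 to 72 h the second of these gave 37 against 57. For Jun at 6 against 0 h, DESeq2 gave 17, total counts 16 and shared-peak scaling 16, against 28; at 72 against 0 h the last gave 31 against 68; from 6 to 72 h DESeq2 gave 18, total counts 8, shared-peak scaling 3 and loess offsets 20, against 34. For CTCF at 72 against 0 h, DESeq2 gave 1, loess offsets 2, a mean count of at least 50 gave 0, only the 2 time points 14 and total counts 11, against 5; from 6 to 72 h total counts gave 4 against 0. For Rad21, DESeq2 gave 0 against 3. Leaving out each library in turn gave 55 to 69, 74 to 77 and 47 to 62 for H3K27ac (6 and 72 against 0 h, 72 against 6 h), 17 to 28, 57 to 69 and 2 to 33 for Jun, 0 to 4, 0 to 14 and 0 to 5 for CTCF, and 1 to 3 for Rad21.

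The labels name no pairing of same-numbered libraries of different times, and the deviations of such libraries correlated at -0.00285 to 0.132. A fit with the replicate number as a block gave 70, 76 and 59 for H3K27ac, 28, 66 and 32 for Jun, 0, 9 and 0 for CTCF, and 4 for Rad21.

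With peaks kept at a −log10 q of at least 10, members with a Jun peak in both libraries were 36, 7 and 31 at 0, 6 and 72 h (17.1%, 5.58% and 21.4% of all genes). Members with a Rad21 peak were 24 and 16 at 0 and 72 h (11.1% and 6.42%). Those with a CTCF peak were 14, 7 and 10 at 0, 6 and 72 h (7.72%, 3.28% and 5.96%).

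Where a named gene was called in the main or the altered fit, its log2 fold change turned sign only under scaling. Turns of sign where neither fit was called were not counted. For H3K27ac, RPL21 at 6 h was 0.09, 0.27 and 0.07 and RPL23 0.11, 0.16 and 0.09 under shared-peak scaling, loess offsets and total counts. At 72 h, with the first 2 of these, RPL21 was 0.20 and 0.23, RPL35A 0.46 and 0.50, and RPL37A 0.34 and 0.30. Under shared-peak scaling alone, RPL39L was 0.50, RPL3L 0.38 and RPS27 0.07 at 72 h, and RPS14 0.00 from 6 to 72 h; for Jun, RPL39L was 0.02 and RPLP1 0.19 at 72 h and RPL23A 0.04 from 6 to 72 h. The cause was not tested. In simulated data at the depth of these libraries, 24 of 200 CTCF and 22 of 200 Rad21 regions changed 2-fold were recovered.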
